A study of Mus musculus with 30 samples.

Results

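Fetal mouse testes exposed at once to a phthalate monoester and to retinoic acid were compared with testes that received the solvent alone. The comparison set the 4 libraries with both compounds against 9 vehicle libraries, 13 of the 30 libraries of the series, chosen by the treatment label and by the second number in each library's title. Testes of C57BL/6 fetuses were removed on gestational day 14, freed of the mesonephros and cultured for 24 h. The co-exposed testes received mono-(2-ethylhexyl) phthalate (MEHP) at 100 µM together with all-trans retinoic acid (ATRA) at 1 µM, and the vehicle testes received the DMSO (1:4000) that all groups carried. The meaning of the title numbers is not stated. The second number ran from 416 to 465 in these 13 libraries and in 5 libraries with ATRA alone (1 µM), which are called the lower range here. The 6 libraries with MEHP alone (100 µM) and 6 further vehicle libraries had numbers from 525 to 599, the upper range. The labels do not tie a library to an animal or litter, and the p-values given here therefore measure the spread between libraries, which may be partly technical.

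Retinoic acid is made from vitamin A by retinaldehyde dehydrogenases and destroyed by hydroxylases of the CYP26 family. It enters the nucleus, binds retinoic acid receptors that sit on DNA as partners of retinoid X receptors, and so switches on target genes, several of which encode its own receptor and its own breakdown enzymes. In the fetal ovary it is tied to the start of meiosis in germ cells, whereas the fetal testis keeps its level low through CYP26B1 and directs germ cells into a male, non-meiotic course. MEHP is the monoester formed when the plasticizer di-(2-ethylhexyl) phthalate is hydrolysed. It activates peroxisome proliferator-activated receptors (PPARs), which also pair with retinoid X receptors, and phthalates are known for effects on the Sertoli, Leydig and germ cells of the fetal testis.

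Total counts were 21463109 to 24038103 in the co-exposed libraries and 18338470 to 29306917 in the vehicle libraries. On the first principal component of the 500 most variable genes (67.2% of the variance) the co-exposed libraries lay at 31.04 to 33.12 and the vehicle libraries at −17.22 to −9.68. Vehicle replicates 7 and 8 stood apart from the other vehicle libraries on the second component (13.6%), at 22.6 and −20.98, and the germ cell list counts are therefore also given without them. Markers of the labelled tissue were present in every library: Sox9 of Sertoli cells had 112 to 193 CPM with both compounds and 37.1 to 82.7 CPM in vehicle, Cyp11a1 of Leydig cells 569.9 to 854 CPM and 572 to 749 CPM, and Ddx4 of germ cells 99.7 to 159 CPM and 85.2 to 161 CPM.

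Of 19323 genes tested, 5595 (29.0%) differed from vehicle at an adjusted p below 0.05 (edgeR quasi-likelihood test). Of these, 2756 (14.3%) rose and 2839 (14.7%) fell, and 1248 (6.46%) did so by at least 2-fold, 618 up and 630 down. The counts of list members below are to be read beside these shares. The median log2 fold change was −0.01 over all genes tested and 0.50 in size over the genes called. The 4 co-exposed libraries lay all above or all below the 9 vehicle libraries for 3408 genes (17.6%), and 3309 of those were also called.

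**Figure D1:**
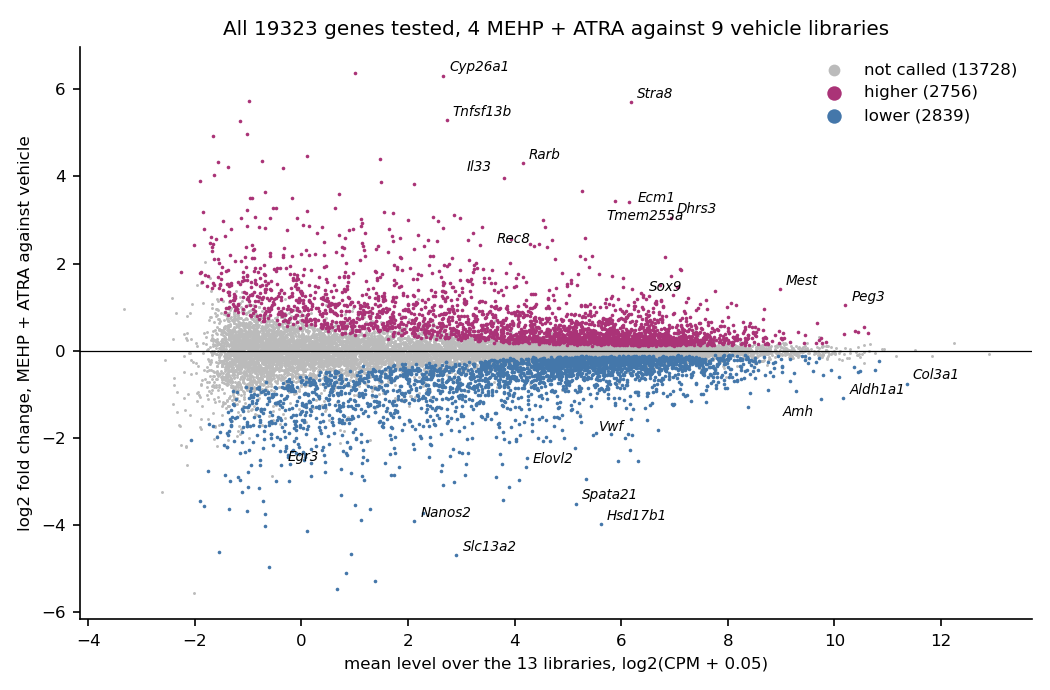
Each point is a gene, with its mean level over the 13 libraries as log2(CPM + 0.05) on the horizontal axis and its log2 fold change with MEHP + ATRA against vehicle on the vertical axis. The 2756 genes that rose (purple) and the 2839 that fell (blue) spread over the whole range of levels, with Cyp26a1, Stra8 and Tnfsf13b near the top and Slc13a2 and Hsd17b1 near the bottom.

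Genes of retinoic acid breakdown rose, and most genes of its synthesis named here fell. Of 18 enzymes tested, 7 rose and 3 fell (median log2 fold change 0.15). The hydroxylase genes Cyp26a1 and Cyp26c1 went from nearly no reads to clear expression. Cyp26a1 (ENSMUSG00000024987, chromosome 19, 37697808 to 37701528) had 20.8, 20.9, 16.8 and 21.1 CPM in the 4 co-exposed libraries and 0.0454 to 0.589 CPM (median 0.178) in the vehicle libraries, and Cyp26c1 had 6.77, 7.40, 4.46 and 6.11 CPM against 0 to 0.158 CPM (median 0.0527). No library of one group reached the other for either gene. Cyp26b1, the hydroxylase that the fetal testis expresses by itself, rose from 139.8 ± 28 CPM (SD, n = 9) to 312 ± 68 CPM (n = 4), a log2 fold change of 1.16 ± 0.15 (± SE, adjusted p = 2.32e-07). Dhrs3, whose product turns retinaldehyde back to retinol, had 301, 310.5, 317 and 317 CPM against 33.5 to 42.5 CPM (median 38.2) (3.06 ± 0.07, adjusted p = 2.06e-25).

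Aldh1a1, a retinaldehyde dehydrogenase gene and the second largest loss in CPM of any called gene, had 729.8, 515, 674 and 668 CPM against 1280.4 to 1509 CPM (median 1360.5) (−1.08 ± 0.09, adjusted p = 1.55e-10). All 4 co-exposed libraries were below all vehicle libraries. Its relative Aldh1a2 fell (−0.49 ± 0.12), and Rdh10, which makes retinaldehyde from retinol, changed by −0.36 ± 0.07. Aldh1a3, the third dehydrogenase of the family, rose (0.50 ± 0.15). Among 9 tested carriers and storage genes, 4 rose and 3 fell. Lrat, which esterifies retinol for storage, had 9.32, 9.26, 12.7 and 11.6 CPM against 1.18 to 2.69 CPM (median 1.60) (2.65 ± 0.17). Carriers of retinoic acid in the cell moved both ways: Crabp1 rose (1.05 ± 0.27), Fabp5 fell (−0.57 ± 0.08), and Crabp2 fell (−0.47 ± 0.18, adjusted p = 0.0473), a call that was lost without MEHP + ATRA replicate 1 or 4 or without vehicle replicate 1, 2, 5, 6 or 8 (adjusted p from 0.054 to 0.245).

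Of 13 receptors and coregulators, 5 rose and 3 fell. Rarb, the retinoic acid receptor gene known as a direct target of its own ligand (ENSMUSG00000017491, chromosome 14, 16430842 to 16575472), had 46.9, 52.0, 56.3 and 51.3 CPM against 1.64 to 3.59 CPM (median 2.98) (4.30 ± 0.17, adjusted p = 9.38e-19). Among the other receptor genes, Rara (−0.43 ± 0.09) and Rxra (−0.28 ± 0.07) fell and Rarg rose (0.31 ± 0.10, adjusted p = 0.0145; 0.136 without MEHP + ATRA replicate 2). The coactivator gene Ncoa3 (0.99 ± 0.05) and the corepressor gene Nrip1 (0.45 ± 0.06) rose.

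The promoters of Rarb and Cyp26a1 are shown because they were the 2 members of the retinoid lists whose promoter window held the element that retinoic acid receptors bind in textbook targets. The element is DR5, a direct repeat of the receptor half-site AGGTCA or a near variant of it with a spacer of 5 bases, searched on both strands in windows from 250 bases before to 50 bases after the start of each gene (RefSeq, GRCm38.p6). In capitals is the element. The Rarb window is at chr14:16575427-16575726 on the minus strand, with the element 53 bases before the start. The Cyp26a1 window is at chr19:37697558-37697857 on the plus strand, with the element 32 bases before the start and on the opposite strand.
Rarb promoter: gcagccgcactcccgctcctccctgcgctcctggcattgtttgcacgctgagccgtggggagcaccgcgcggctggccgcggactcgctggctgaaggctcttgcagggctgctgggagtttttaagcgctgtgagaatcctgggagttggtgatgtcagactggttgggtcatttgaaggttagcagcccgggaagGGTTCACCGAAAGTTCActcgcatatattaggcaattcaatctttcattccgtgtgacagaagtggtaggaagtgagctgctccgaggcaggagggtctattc
Cyp26a1 promoter: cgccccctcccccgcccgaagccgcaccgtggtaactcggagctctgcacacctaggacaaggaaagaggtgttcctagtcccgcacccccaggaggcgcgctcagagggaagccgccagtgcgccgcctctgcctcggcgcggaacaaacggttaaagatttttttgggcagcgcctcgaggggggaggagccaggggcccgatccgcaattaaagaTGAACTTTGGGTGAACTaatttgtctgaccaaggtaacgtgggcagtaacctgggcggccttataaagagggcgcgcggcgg
DR5 was present in 2 of the 45 retinoid genes with a window (4.44%) and in 31 of 27025 genes with a window (0.115%). Of those 31 genes, 9 were tested here, 3 rose and 0 fell. Rarb and Cyp26a1 themselves are 2 of the 3 that rose. The same repeat with a spacer of 2 bases was in 0 of the 45 windows and 0.311% of all windows. A match describes letters and not a bound site.

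Retinoid-induced genes known from other cells also rose, 11 of 19, with 3 lower (median 0.29). Ecm1, an extracellular matrix protein gene, had 169.5, 233, 188 and 173 CPM against 15.9 to 19.9 CPM (median 18.2) (3.41 ± 0.10). The caudal homeobox gene Cdx1 had 6.26, 10.3, 6.21 and 9.49 CPM against 0.222 to 0.658 CPM (median 0.315), and Foxa1 changed by 1.71 ± 0.50. Tgm2, a transglutaminase gene, rose by 0.72, whereas Btg2, an antiproliferative gene, fell (−0.88 ± 0.08).

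**Figure D2:**
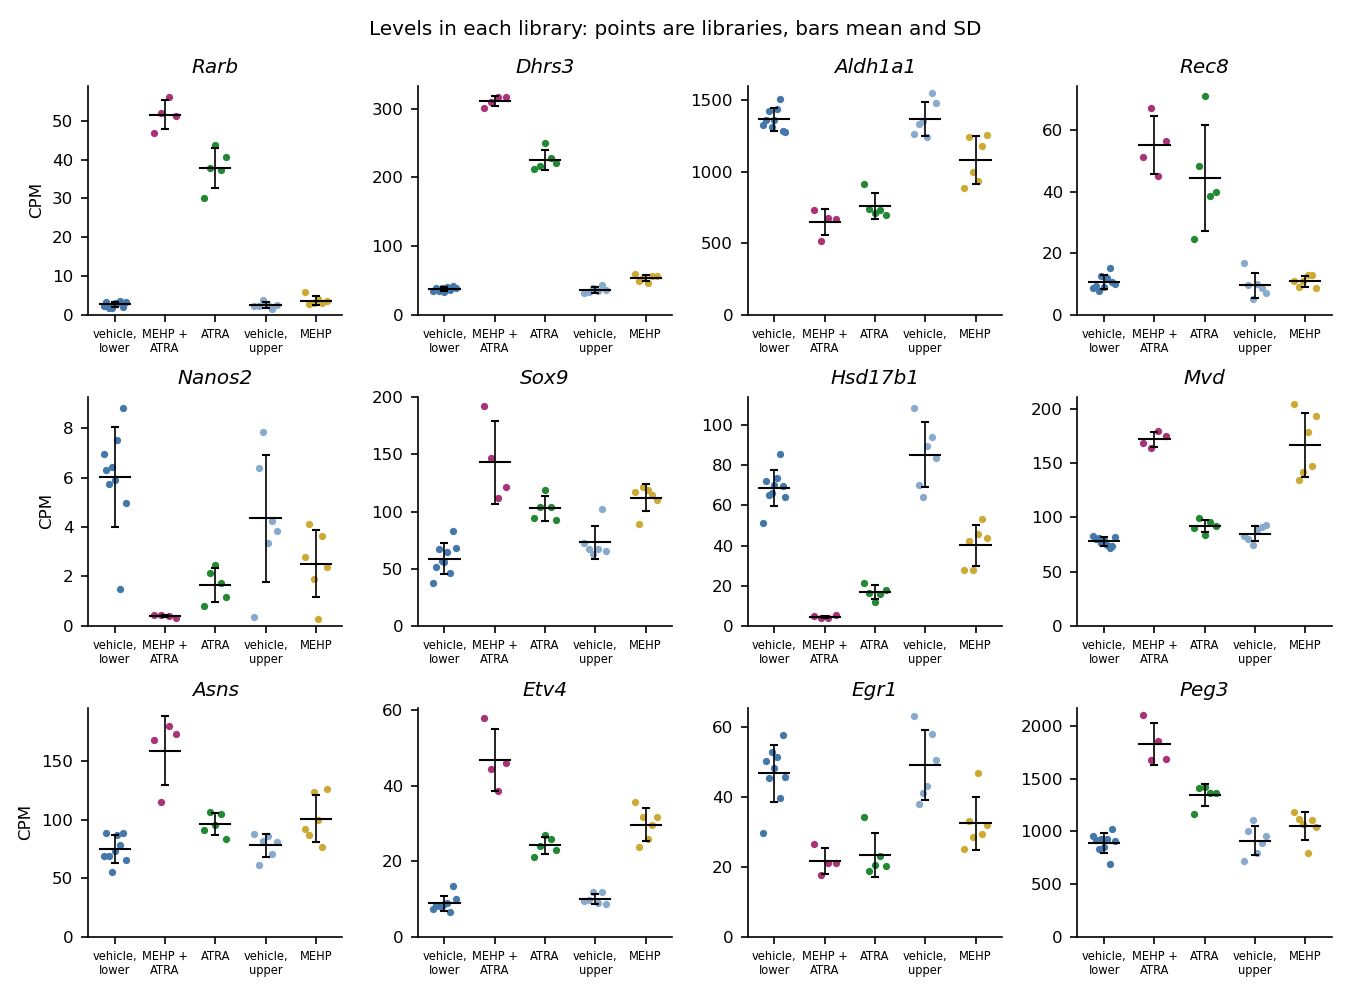
Points are the CPM of 12 genes in each library of the 5 groups, with the mean and SD as bars and each axis starting at 0. Rarb, Dhrs3 and Rec8 are high in both groups that received ATRA, Mvd in both that received MEHP, and Hsd17b1 is lowest in the 4 co-exposed libraries.

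Genes of meiosis were higher in the co-exposed testes. Of 29 meiosis genes tested, 21 rose and 0 fell (median 0.65), and for 16 of them the 4 co-exposed libraries lay above all 9 vehicle libraries. Stra8, the retinoid-induced gatekeeper of meiosis, had 226, 243, 206 and 232 CPM against 1.24 to 9.04 CPM (median 3.85). Rec8, which encodes a cohesin of meiotic chromosomes, had 51.0, 67.3, 45.1 and 56.5 CPM against 7.73 to 15.2 CPM (median 9.92) (2.39 ± 0.20, adjusted p = 8.54e-11). Smc1b, a second meiotic cohesin gene, had 64.9, 93.1, 82.4 and 84.5 CPM against 16.3 to 20.5 CPM (median 17.5). For both cohesin genes the groups were separated by a wide gap. Majin, which tethers telomeres to the nuclear envelope, rose from 0.739 ± 0.33 CPM to 3.81 ± 0.45 CPM (2.37 ± 0.31), and the axis gene Hormad1 rose from 9.23 ± 3.1 CPM to 25.5 ± 3.5 CPM. Dmc1, the meiotic recombinase gene, rose more modestly (0.99 ± 0.11). Sycp3, a core protein of the synaptonemal complex, did not pass (0.15 ± 0.19, adjusted p = 0.633), nor did Spo11, which makes the breaks of recombination (−0.20 ± 0.14, adjusted p = 0.328).

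Of 24 genes of the male germ cell course tested, 9 fell, 2 rose and 13 were not called (median −0.50). Nanos2, whose RNA-binding product holds male germ cells out of meiosis, had 0.432, 0.419, 0.405 and 0.326 CPM against 1.48 to 8.84 CPM (median 6.30) (−3.92 ± 0.60, adjusted p = 4.84e-06). Egr4, a transcription factor gene, fell from 34.6 ± 5.9 CPM to 12.1 ± 4.9 CPM, Tdrd5 fell from 91.3 ± 11 CPM to 30.7 ± 8.6 CPM, and Nanos3 fell from 8.70 ± 2.1 CPM to 2.99 ± 0.90 CPM. Dnd1, whose RNA-binding product is needed by male germ cells, fell (−0.99 ± 0.27). Dnmt3l, a cofactor of DNA methylation, had 13.6, 21.4, 20.4 and 12.4 CPM against 6.66 to 112 CPM (median 40.3), groups that overlapped, and did not pass (−1.46 ± 0.67, adjusted p = 0.103), although it was called with only the compared libraries fitted (adjusted p = 0.028). Lefty1, a Nodal antagonist gene, rose (1.45 ± 0.34), while Nodal itself did not pass (−0.68 ± 0.45, adjusted p = 0.279). Without vehicle replicates 7 and 8, 10 members fell and 2 rose, in the meiosis list 21 rose and 0 fell, in the pluripotency list 0 rose and 6 fell, and among general germ cell genes 6 rose and 2 fell. Of 15 pluripotency genes 6 fell and 0 rose (median −0.39), among them Dppa4 (−1.23 ± 0.21), Tfap2c (−1.05 ± 0.24) and Utf1 (−1.10 ± 0.20). Pou5f1, the central factor of that state, had −0.25 ± 0.19 (adjusted p = 0.356).

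Of 18 general germ cell genes tested, 6 rose and 2 fell. Ddx4 had 99.7, 159, 128 and 115 CPM against 85.2 to 161 CPM (median 120.2), with full overlap, and Dazl had 0.31 ± 0.16 (adjusted p = 0.145). Dazl was called as higher with only the compared libraries fitted (0.33, adjusted p = 0.0039) and with all 15 vehicle libraries as 1 group (0.50, adjusted p = 0.0256). Their summed level with the other 16 matched markers was 856.3 to 1128 CPM in the co-exposed and 712.7 to 1019.9 CPM in the vehicle libraries. Sohlh2, a transcription factor gene of differentiating germ cells, rose from 6.07 ± 2.1 CPM to 36.1 ± 4.4 CPM (2.56 ± 0.26), and the receptor gene Kit rose from 65.4 ± 5.0 CPM to 128 ± 9.7 CPM. Rhox9 rose from 0.365 ± 0.17 CPM to 1.37 ± 0.23 CPM. In bulk RNA, fewer cells of a type and less RNA per cell cannot be told apart, here and in every result on a cell type that follows.

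Sertoli cell genes split in both directions. Of 30 tested, 14 rose and 7 fell (median 0.02). Among the regulators, Sox9, the testis-determining factor gene of Sertoli cells, had 193, 147, 112 and 121 CPM against 37.1 to 82.7 CPM (median 56.7) (1.28 ± 0.14, adjusted p = 2.56e-08), with no overlap. Nr0b1, which encodes the orphan receptor DAX1, had 72.7, 52.2, 59.6 and 60.6 CPM against 8.48 to 13.7 CPM (median 9.98) (2.54 ± 0.12, adjusted p = 2.41e-16). The Sertoli-derived Hedgehog signal gene Dhh (0.51 ± 0.10), Wt1 (0.73 ± 0.08) and Dmrt1 (0.71 ± 0.09) rose too, and Fgf9, a male-promoting growth factor gene, rose from 3.53 ± 0.42 CPM to 9.31 ± 1.8 CPM. Gata4 (−0.06 ± 0.08, adjusted p = 0.62) and Nr5a1 (−0.05 ± 0.10, adjusted p = 0.785) did not pass. Among the secreted products and enzymes, Amh, the hormone gene that removes the Müllerian duct, had 641, 417, 399.6 and 436 CPM against 688 to 1237 CPM (median 1021) (−1.11 ± 0.16, adjusted p = 1.87e-06). The co-exposed libraries were all below the vehicle libraries, with replicate 1 the nearest. Hsd17b3, whose enzyme forms testosterone from androstenedione in fetal Sertoli cells, fell from 112 ± 5.1 CPM to 37.6 ± 2.2 CPM (−1.58 ± 0.09). Inha (−0.54 ± 0.14) and the homeobox gene Rhox8 (−1.5 ± 0.17) fell, and Inhbb did not pass (−0.05 ± 0.11, adjusted p = 0.796). The tight-junction gene Cldn11 rose from 27.5 ± 7.9 CPM to 93.5 ± 16 CPM (1.76 ± 0.17).

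Genes known from the supporting cells of the ovary rose in part. Of 18 tested, 7 rose and 1 fell. Foxl2, the transcription factor gene of granulosa cells, had 12.5, 12.2, 11.3 and 11.3 CPM against 1.72 to 3.46 CPM (median 2.57) (2.17 ± 0.22, adjusted p = 4.59e-09). Wnt4, a signal that favours the ovary, had 221, 267, 222 and 236 CPM against 63.3 to 83.5 CPM (median 70.5) (1.72 ± 0.08), and Runx1 rose from 2.70 ± 0.58 CPM to 8.46 ± 2.0 CPM. In all 3 genes the co-exposed libraries were above every vehicle library. Rspo1, the partner signal of Wnt4, did not pass (−0.25 ± 0.22, adjusted p = 0.434), nor did Fst (−0.69 ± 0.31, adjusted p = 0.0996; 0.0481 without vehicle replicate 2 and 0.0412 with all 15 vehicle libraries as 1 group).

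Of 24 Leydig cell genes tested, 6 rose and 4 fell (median 0.02). Star, which carries cholesterol into mitochondria, had 128, 83.1, 102 and 87.0 CPM against 44.8 to 66.8 CPM (median 59.0) (0.81 ± 0.14, adjusted p = 2.65e-05). Fdx1, the ferredoxin that feeds electrons to CYP11A1, rose from 53 ± 3.0 CPM to 109 ± 27 CPM (1.04 ± 0.09), and Por, which serves CYP17A1, rose from 114 ± 7.3 CPM to 214 ± 20 CPM (0.91 ± 0.06). Fdxr, the reductase that charges ferredoxin, fell from 254 ± 18 CPM to 156 ± 28 CPM (−0.71 ± 0.10). Cyp11a1 (0.09 ± 0.12, adjusted p = 0.622), Cyp17a1 (0.46 ± 0.21, adjusted p = 0.099), Hsd3b1 (−0.04 ± 0.09, adjusted p = 0.819), Insl3 (−0.10 ± 0.15, adjusted p = 0.665) and Lhcgr (0.15 ± 0.14, adjusted p = 0.471) did not pass. Of these, Cyp17a1 was called as higher with only the compared libraries fitted (0.48, adjusted p = 0.00772) and with all 15 vehicle libraries as 1 group (0.52, adjusted p = 0.0383).

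Many genes of the interstitial stroma, the peritubular layer and the matrix were lower. Of 23 stromal genes 12 fell and 4 rose (median −0.30). Col3a1, a fibrillar collagen gene and the largest loss in CPM of any called gene, had 1753, 1671, 1974 and 1703 CPM against 2721 to 3205 CPM (median 3032) (−0.76 ± 0.07, adjusted p = 1.07e-10). The growth factor receptor gene Pdgfra had 757, 799.7, 845 and 795 CPM against 1160.4 to 1287 CPM (median 1199) (−0.60 ± 0.06), and the progenitor regulator Lhx9 (−0.98 ± 0.09) fell. Gli1, a readout of Hedgehog signalling, fell (−0.45 ± 0.07), while another readout, Ptch1, did not pass (−0.05 ± 0.07, adjusted p = 0.664). Dcn, a small proteoglycan gene, rose from 216 ± 22 CPM to 444 ± 58 CPM. Of 16 myoid and smooth muscle genes, 7 fell and 0 rose, with Myh11 at −0.64 ± 0.08, Tpm1 at −0.59 ± 0.09 and Tagln2 at −0.71 ± 0.08, and Acta2 did not pass (0.14 ± 0.10, adjusted p = 0.293).

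Of 31 matrix genes, 15 fell and 8 rose (median −0.29). Falls included the fibrillar collagens Col5a1 (−0.56 ± 0.08) and Col1a2 (−0.44 ± 0.07) and the inhibitor gene Timp2 (−0.76 ± 0.06). Rises included basement membrane members, Lama4 from 109 ± 5.5 CPM to 237 ± 11 CPM (1.12 ± 0.05), and Sparc (0.45 ± 0.05). Among 25 adhesion and junction genes, 11 fell and 7 rose. Jam2 fell from 91.6 ± 6.9 CPM to 36.3 ± 4.7 CPM (−1.34 ± 0.10), Vcam1 from 17.6 ± 2.0 CPM to 4.81 ± 1.0 CPM (−1.86 ± 0.13) and the protocadherin gene Pcdh8 from 9.85 ± 2.1 CPM to 1.21 ± 0.29 CPM (−3.02 ± 0.29). Espn, an actin-bundling protein gene of Sertoli junctions, rose from 108 ± 23 CPM to 251 ± 64 CPM.

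**Figure D3:**
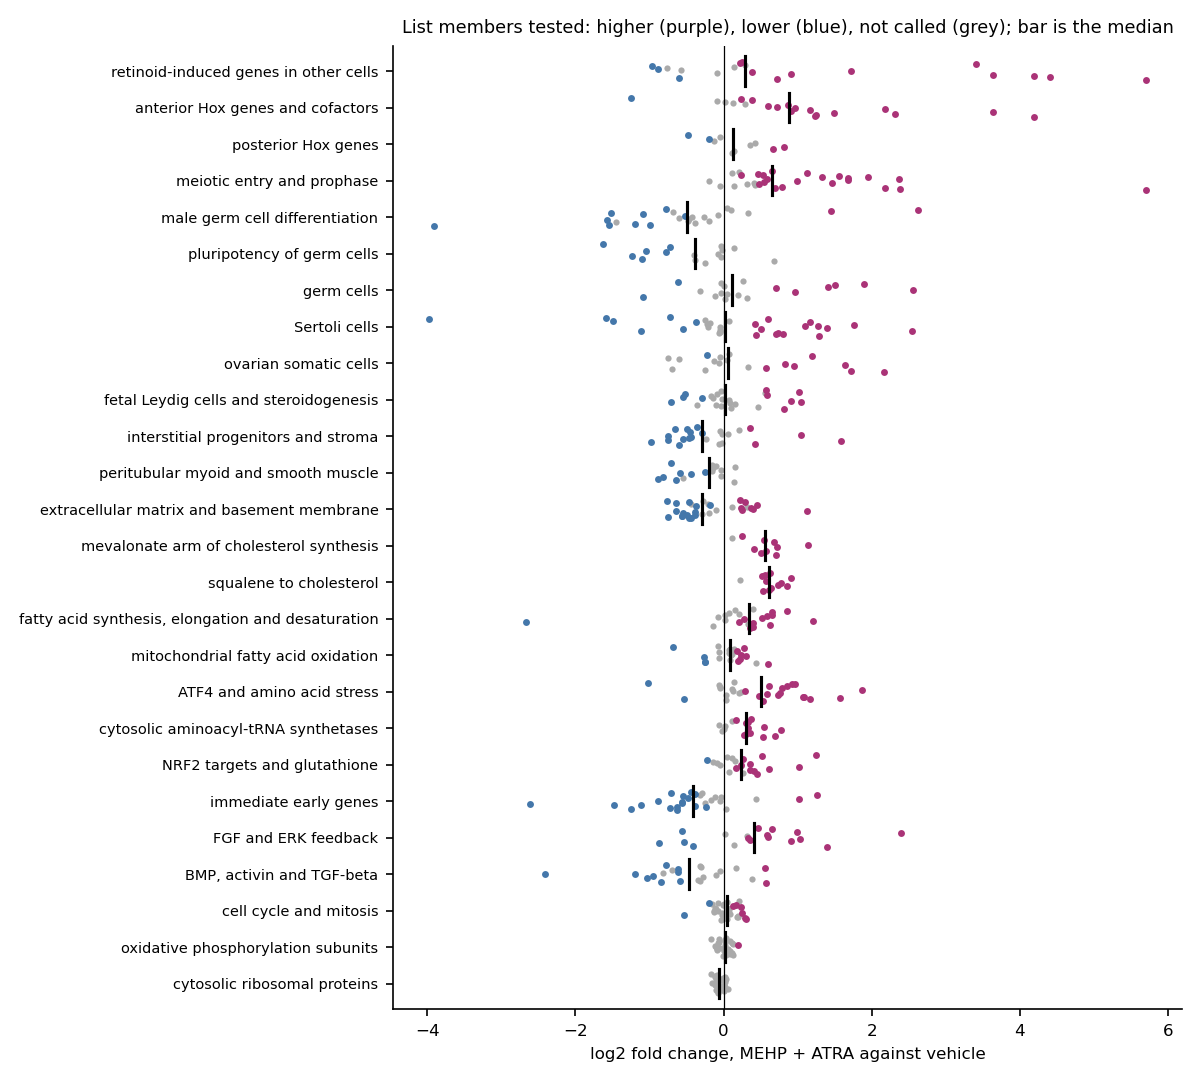
Each point is the log2 fold change of a list member with MEHP + ATRA against vehicle, purple where it rose, blue where it fell and grey where it was not called, and the bar is the list's median. Cholesterol, meiosis, anterior Hox and ATF4 lists lie mostly right of 0, immediate early, myoid and pluripotency lists mostly left, and ribosomal and respiratory chain lists close to 0.

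Genes of cholesterol synthesis rose at nearly every step. In the mevalonate arm 9 of 10 genes rose and 0 fell (median 0.56), and from squalene to cholesterol 11 of 12 rose and 0 fell (median 0.62). Acat2, the first step, rose from 84.7 ± 5.0 CPM to 139 ± 10 CPM (0.71 ± 0.09). Hmgcs1, the synthase gene of the second step, rose (0.50 ± 0.08). Mvd, a decarboxylase gene of the same arm, had 168, 164, 179.6 and 175 CPM against 72.1 to 82.8 CPM (median 79.0) (1.14 ± 0.08, adjusted p = 5.33e-13). Cyp51 (0.64 ± 0.08), Msmo1 (0.73 ± 0.11) and Tm7sf2 (0.86 ± 0.10) rose in the later arm. Ggps1 (0.12 ± 0.08, adjusted p = 0.299), a branch to isoprenoids, and Ebp (0.21 ± 0.10, adjusted p = 0.115) did not pass. Ebp was called without MEHP + ATRA replicate 2 (0.33, adjusted p = 0.0163). Of 21 genes of sterol sensing and transport, 10 rose and 1 fell. Srebf1, whose product drives lipid synthesis, rose slightly (0.19 ± 0.07, adjusted p = 0.045), a call that was lost without MEHP + ATRA replicate 1 or 2 or vehicle replicate 1, 2, 5 or 6 (adjusted p from 0.0543 to 0.199). Insig1 (0.45 ± 0.07), Stard4 (0.66 ± 0.08) and the efflux gene Abca1 (0.55 ± 0.09) rose as well. The sterol element TCACNCCAC was in the promoter windows of 1 of 31 genes of the 3 lists (3.23%) and of 1.44% of all genes with a window.

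Many of these genes were also higher than with ATRA alone. Against the 5 ATRA libraries, where 579 of all genes differed (3.0%; 313 or 1.62% higher, 266 or 1.38% lower), 9 of 10 mevalonate genes and 10 of 12 later genes were higher with both compounds and 0 lower. Mvd was at 92.2 ± 5.8 CPM with ATRA alone (n = 5) and 172 ± 6.8 CPM with both (0.90 ± 0.09, adjusted p = 1.74e-07). Set against the change with MEHP alone, where 1601 genes differed (8.29%; 784 or 4.06% higher, 817 or 4.23% lower), 0 of 10 mevalonate genes differed in edgeR's test (0 at an unadjusted p under 0.05, and 0 in DESeq2 and limma-voom). In the later arm 1 gene differed, Lbr, which encodes a sterol reductase of the nuclear envelope, at 0.46 ± 0.10 (adjusted p = 0.0023).

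Most of the genes of fatty acid synthesis rose and an elongase gene fell steeply. Of 22 genes, 12 rose and 1 fell (median 0.34). Fasn, the fatty acid synthase gene, had 1224, 1186, 990.3 and 902 CPM against 573 to 789 CPM (median 688) (0.63 ± 0.09), and the desaturase gene Fads2 rose from 168 ± 14 CPM to 264 ± 27 CPM. Elovl2, which elongates polyunsaturated fatty acids, had 3.84, 3.40, 4.19 and 4.19 CPM against 19.5 to 29.4 CPM (median 25.4) (−2.67 ± 0.18, adjusted p = 3.96e-13). The highest co-exposed library was far below the lowest vehicle library. Of 22 genes of mitochondrial oxidation, 7 rose and 4 fell, with Cpt1a, the entry enzyme, at 0.60 ± 0.07 and Acss1 at −0.68 ± 0.09. Among 32 PPAR receptor and target genes, 13 rose and 4 fell (median 0.11). The mitochondrial carrier gene Slc25a34 rose from 1.54 ± 0.22 CPM to 4.13 ± 0.30 CPM (1.42 ± 0.16). Angptl4, a lipoprotein lipase inhibitor gene, had 104, 82.8, 106 and 94.0 CPM against 49.0 to 61.4 CPM (median 58.6) (0.77 ± 0.07, adjusted p = 6.85e-10), and its change was smaller than with MEHP alone (difference −0.62 ± 0.10, adjusted p = 0.000121). Pdk4, a kinase gene that spares glucose, rose (0.52 ± 0.16, adjusted p = 0.0165; 0.0995 without MEHP + ATRA replicate 3). The receptor genes Ppara (−0.01 ± 0.12, adjusted p = 0.979), Ppard (0.01 ± 0.10, adjusted p = 0.937) and Pparg (0.01 ± 0.23, adjusted p = 0.987) did not pass. No window of the 44 PPAR and oxidation genes held the repeat with a spacer of 1 base (0.263% of all windows did).

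Genes of the amino acid response rose together with the enzymes that charge transfer RNA. ATF4 is the transcription factor that cells make more of when amino acids run short or the endoplasmic reticulum is stressed. Of 28 ATF4 and amino acid stress genes, 16 rose and 2 fell (median 0.51), and of 17 cytosolic aminoacyl-tRNA synthetase genes, 12 rose and 0 fell (median 0.31). Asns, asparagine synthetase, had 168, 115, 179.9 and 173 CPM against 55.0 to 88.9 CPM (median 73.0) (1.08 ± 0.12, adjusted p = 3.67e-08). Chac1, which breaks down glutathione, had 24.1, 13.5, 20.8 and 20.3 CPM against 4.48 to 10.1 CPM (median 6.05) (1.57 ± 0.19, adjusted p = 8.14e-08). Slc7a3, a transporter gene of cationic amino acids, had 17.0, 10.2, 16.8 and 18.4 CPM against 2.62 to 6.5 CPM (median 3.99) (1.86 ± 0.23). In all 3 genes every co-exposed library was above every vehicle library. Trib3 (1.16 ± 0.11), Psat1 (1.07 ± 0.11), Gpt2 (0.96 ± 0.07) and Atf4 itself (0.53 ± 0.08) rose, as did the synthetase genes Iars (0.77 ± 0.11), Cars (0.70 ± 0.11), Nars (0.55 ± 0.08) and Aars (0.54 ± 0.09). Ddit3, the factor linked to cell death under such stress, did not pass (0.03 ± 0.07, adjusted p = 0.784), and the secreted factor gene Stc2 fell (−1.02 ± 0.11).

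The element that ATF4 binds with C/EBP partners (CARE, TGATGNAA on either strand) was in the promoter windows of 13 of the 35 genes of the ATF4 and synthetase lists that had a window (37.1%), and in 4.51% of the 27025 genes with a window. Of the 13, all were tested, 10 rose and 0 fell. Over all genes that held it, 385 were tested, 72 rose and 66 fell. The sites of 6 risen genes are printed with 6 bases on each side (GRCm38.p6, RefSeq), each 5′ to 3′ on the strand of its gene, with the element in capitals. Where the element lies on the opposite strand it reads as its reverse complement.
Asns, chr6:7693225-7693232: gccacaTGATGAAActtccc
Chac1, chr2:119351049-119351056: ctgccgTTGCATCActcctg
Trib3, chr2:152344039-152344046: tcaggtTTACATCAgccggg
Pycr1, chr11:120643844-120643851: tgtgtaTGATGCAAtgcaca
Iars, chr13:49682137-49682144: tcagtaTTGCATCAcctcca
Nupr1, chr7:126625573-126625580: gccagaTTGCATCAgacagg

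Many of these genes were also higher than with ATRA alone. Against the 5 ATRA libraries, 14 of 28 ATF4 genes and 8 of 17 synthetase genes were higher and 0 lower. Asns was at 96.2 ± 9.7 CPM with ATRA alone (0.72 ± 0.14 between the groups, adjusted p = 0.00247), and Iars had 0.56 ± 0.12 (adjusted p = 0.00594). With MEHP alone, edgeR called 4 ATF4 genes and 0 synthetase genes against upper-range vehicle (3 synthetase genes at an unadjusted p under 0.05), where 912 of all genes (4.72%) were called. The log2 change with both compounds was higher than that with MEHP for 8 ATF4 and 3 synthetase genes, and lower for 2 ATF4 genes, Stc2 (−0.67 ± 0.15) and Ddit4 (−0.37 ± 0.12). For Asns this difference was 0.71 ± 0.18 (adjusted p = 0.00921) and for Iars 0.58 ± 0.15 (adjusted p = 0.0121).

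Of 21 NRF2 and glutathione genes, 11 rose and 1 fell (median 0.24), with Srxn1 at 0.61 ± 0.08, Nfe2l2 at 0.45 ± 0.07 and Gclc at 0.42 ± 0.08, and Hmox1 did not pass (0.07 ± 0.09, adjusted p = 0.618). The antioxidant element (TGACNNNGC) was in 8 of 16 of these promoters (50%) and 14.0% of all, and 7 of the 8 rose. Over all genes that held it, 2187 were tested, 370 rose and 325 fell. Among 19 endoplasmic reticulum chaperone genes, 9 rose and 1 fell, and Manf had 0.37 ± 0.09. That count rested on single libraries: 5 were called without MEHP + ATRA replicate 1, 4 without replicate 3 and 6 without replicate 4. Of 23 p53 and apoptosis genes, 4 rose and 4 fell, where 14.3% of all genes rose and 14.7% fell. The death-promoting Bik (1.98 ± 0.15) and Perp (1.85 ± 0.23) rose, and Pmaip1 (−1.99 ± 0.37) and Hrk (−1.66 ± 0.32) fell. Cdkn1a, the classical p53 target, did not pass (−0.07 ± 0.13, adjusted p = 0.752).

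Immediate early genes were lower while feedback genes of FGF and ERK signalling were higher. Immediate early genes are transcribed soon after a growth signal. Of 28 tested, 17 fell and 2 rose (median −0.41). Egr1 had 26.5, 17.5, 21.2 and 21.1 CPM against 29.7 to 57.7 CPM (median 48.3) (−1.12 ± 0.18, adjusted p = 7.71e-06), Fosl2 fell from 155 ± 15 CPM to 94.3 ± 13 CPM (−0.72 ± 0.09), and Ier2 fell from 58.8 ± 5.0 CPM to 39.9 ± 4.0 CPM. Fos fell as well (−0.62 ± 0.22, adjusted p = 0.0335), a call that was lost without any 1 of the co-exposed libraries or without vehicle replicate 3 (adjusted p from 0.05 to 0.117). The 2 that rose were Dusp5 (1.02 ± 0.10), an ERK phosphatase gene, and Nr4a3 (1.26 ± 0.27). In the FGF and ERK list 11 of 18 rose and 4 fell (median 0.41). Etv4, a factor induced by FGF, had 58.0, 44.4, 38.6 and 45.9 CPM against 6.49 to 13.3 CPM (median 8.40) (2.40 ± 0.12, adjusted p = 8.95e-16), Etv5 rose from 39.9 ± 9.2 CPM to 79.6 ± 16 CPM, and the inhibitor gene Spry4 rose from 15.7 ± 2.3 CPM to 32.1 ± 6.2 CPM (1.03 ± 0.11). The 4 that fell were Il17rd, a further inhibitor (−0.56 ± 0.08), and the receptor genes Fgfr1 (−0.41 ± 0.07), Fgfr3 (−0.87 ± 0.13) and Fgfr4 (−0.53 ± 0.10). Against ATRA alone, 8 of the 18 were higher and 0 lower, and 0 of the 28 immediate early genes differed between these groups in edgeR's test (5 at an unadjusted p under 0.05, and 0 in DESeq2 and limma-voom). Over all genes tested, 3.0% differed between these groups, and a count of 0 in 28 lies near that share.

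In the BMP, activin and TGF-beta list, 9 of 22 fell and 2 rose (median −0.47). The BMP antagonist gene Grem1 fell from 2.33 ± 0.77 CPM to 0.435 ± 0.098 CPM (−2.41 ± 0.37). Bmp4 (−0.84 ± 0.09), the activin subunit gene Inhba (−0.62 ± 0.09) and the feedback inhibitor gene Smad7 (−0.96 ± 0.10) fell as well, and Bmp2 (0.57 ± 0.11) and Tgfb2 (0.56 ± 0.11) rose. Of 22 Wnt genes, 8 rose and 2 fell. The ligand gene Wnt9a (0.69 ± 0.15) and the antagonist gene Wif1 (1.24 ± 0.23) rose, Rspo3, which enhances the signal, fell (−0.73 ± 0.19), and Axin2, a common readout of the pathway, did not pass (−0.14 ± 0.10, adjusted p = 0.335) but was called as lower without MEHP + ATRA replicate 2 (−0.30, adjusted p = 0.0147). Of 19 cytokine and receptor genes, 5 rose and 3 fell. Tnfsf13b, which encodes a survival factor of B cells, had 15.8, 23.6, 20 and 21.1 CPM against 0.178 to 0.791 CPM (median 0.505) (5.29 ± 0.19). Il33, an alarmin gene, had 27.6, 46.6, 41.3 and 43.0 CPM against 1.16 to 4.05 CPM (median 2.53) (3.97 ± 0.34). Both came from very low levels. Interferon-stimulated genes did not move one way, with 3 of 24 higher and 4 lower (14.3% and 14.7% of all genes), and Isg15 changed by −2.28 ± 0.45.

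Most anterior Hox genes rose, and no gene of the HoxD cluster did. Hox genes lie in 4 clusters and are numbered by paralogue group from the end expressed nearest the head, the end known for its response to retinoic acid. In the list of anterior genes and cofactors, 15 of 20 rose and 1 fell (median 0.89), against 2 and 2 of 10 posterior genes (median 0.13). Hoxb1 had 1.60, 2.61, 1.04 and 1.10 CPM against 0 to 0.369 CPM (median 0.105), and Hoxb4 had 11.2, 12.8, 10.3 and 11.8 CPM against 1.65 to 4.32 CPM (median 2.32) (2.18 ± 0.20). In both genes no libraries overlapped. Over 30 Hox genes tested, 5 of 8 in cluster A, 8 of 9 in B and 4 of 6 in C rose, and 0 of 7 in D. In cluster D, Hoxd9 (−0.20 ± 0.06) and Hoxd11 (−0.48 ± 0.13; adjusted p = 0.0648 without MEHP + ATRA replicate 1) fell, and Hoxd4 had 0.02 ± 0.10 (adjusted p = 0.928). Pbx3, a cofactor gene, was the member of the anterior list that fell (−1.25 ± 0.08). The strand setting of the counting is not given in the sources used here, so reads of Hox genes and of their antisense transcripts cannot be told apart.

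**Figure D4:**
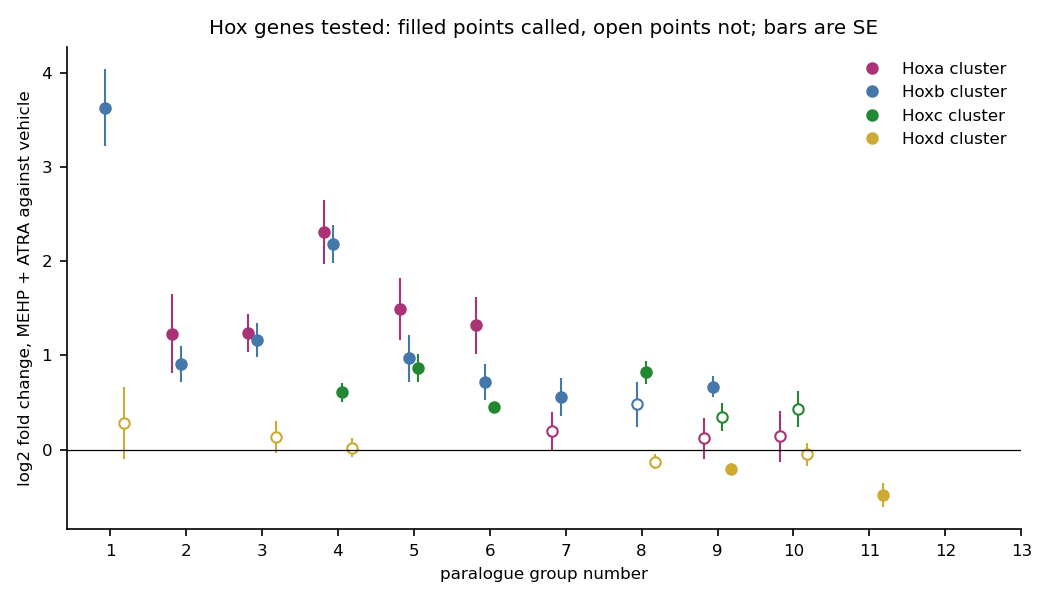
Log2 fold change (bars are SE) of 30 Hox genes tested, with MEHP + ATRA against vehicle, by paralogue group number and coloured by cluster. Filled points were called. Group 1 of cluster B and group 4 of clusters A and B stand highest, at 2.18 to 3.63, and all 7 points of cluster D lie between −0.48 and 0.28.

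Some imprinted genes were among the largest gains in RNA. Of 21 tested, 6 rose and 5 fell. Peg3, a zinc-finger gene expressed from the paternal copy, was the largest gain in CPM of any called gene and had 2102, 1683, 1857 and 1684 CPM against 689 to 1023 CPM (median 916) (1.04 ± 0.10, adjusted p = 4.89e-10). Mest had 921, 758, 996 and 861 CPM against 258 to 373 CPM (median 338) (1.41 ± 0.13). Zim1, the neighbour of Peg3, rose from 133 ± 11 CPM to 281 ± 24 CPM, and Plagl1 rose (0.63 ± 0.10). Dlk1 (−0.89 ± 0.13) and Nnat (−0.87 ± 0.12) fell. Igf2 did not pass (0.15 ± 0.14, adjusted p = 0.479), whereas H19, beside it on chromosome 7, rose (0.42 ± 0.14, adjusted p = 0.0181) with groups that overlapped. The H19 call was lost without MEHP + ATRA replicate 3 (adjusted p = 0.0559) or 4 (0.0529).

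Of 26 ribosomal protein genes edgeR called 0 (1 at an unadjusted p under 0.05, and 0 in DESeq2 and limma-voom), with log2 fold changes from −0.17 to 0.06. Of 28 respiratory chain genes 1 rose, Uqcrc2 (0.20 ± 0.07, adjusted p = 0.0272), and the list ran from −0.17 to 0.20. That call was lost without MEHP + ATRA replicate 1, 3 or 4 (adjusted p from 0.0736 to 0.107). Of 24 hypoxia and glycolysis genes, 6 rose and 4 fell, among them the phosphofructokinase gene Pfkl (0.67 ± 0.11) and the vasodilator gene Adm (1.26 ± 0.19) on the higher side and the hexokinase gene Hk1 (−0.53 ± 0.11) on the lower. Without MEHP + ATRA replicate 4, 2 of them rose and 4 fell. Of 33 cell cycle genes, 6 rose and 2 fell, where 14.3% of all genes rose and 14.7% fell. Mki67, a marker of dividing cells, did not pass against vehicle (−0.04 ± 0.07, adjusted p = 0.722) and was higher than with ATRA alone (0.29 ± 0.07, adjusted p = 0.0257).

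Of 18 leukocyte genes tested, edgeR called 0 (1 at an unadjusted p under 0.05, and 0 in DESeq2 and limma-voom), and their summed level was 90.8 to 145.9 CPM with both compounds and 87.8 to 201.7 CPM in vehicle. Of 13 erythroid genes 1 rose, Tfrc (1.03 ± 0.09), which other cells also express, and the sums overlapped (308.0 to 786.3 against 319.1 to 872.5 CPM). Of 18 endothelial genes, 3 rose and 3 fell (14.3% and 14.7% of all genes). Pecam1 was up from 33.6 ± 2.9 CPM to 63.3 ± 7.3 CPM and Vwf down from 57.4 ± 20 CPM to 15.0 ± 3.1 CPM. Cdh5 and Kdr did not pass (−0.05 ± 0.16 and 0.00 ± 0.15, adjusted p = 0.864 and 0.999). Of 14 kidney and mesonephros genes, 4 rose and 4 fell, with Pax2 from 0.808 ± 0.32 CPM to 7.50 ± 1.8 CPM Epcam from 19.2 ± 2.7 CPM to 38.1 ± 3.9 CPM and Lhx1 from 2.21 ± 1.7 CPM to 0.337 ± 0.086 CPM. The sum of 8 adrenal genes was 64.4 to 91.3 CPM against 21.2 to 27.3 CPM, and Nr0b1 made up most of it: the defining adrenal enzyme gene Cyp21a1 was at 0.259 CPM or less in each co-exposed library. The liver gene Alb was at 0.18 CPM or less in each of them.

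Among 28 genes of steroid, thyroid and orphan nuclear receptors, 8 rose and 7 fell. Vdr, the vitamin D receptor gene, had 27.2, 24.3, 18.8 and 20.5 CPM against 6.49 to 10.8 CPM (median 7.37) (1.57 ± 0.14, adjusted p = 4.62e-10), without overlap, and Nr6a1, the germ cell nuclear factor gene, rose from 13.9 ± 1.1 CPM to 25.7 ± 2.0 CPM. The glucocorticoid receptor gene Nr3c1 rose less (0.23 ± 0.04), and Rorb fell from 0.967 ± 0.39 CPM to 0.294 ± 0.14 CPM.

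Several of the largest changes were in genes outside these lists. Cebpe, a transcription factor gene known from granulocytes, had 13.6, 9.96, 13.5 and 10.7 CPM against 0.353 to 1.65 CPM (median 0.840) (3.83 ± 0.24, adjusted p = 6.84e-14). Esyt3, which encodes a membrane tether of the endoplasmic reticulum, had 73.0, 61.5, 49.9 and 49.9 CPM against 4.67 to 10.8 CPM (median 6.54) (3.01 ± 0.17, adjusted p = 1.18e-14). In both genes every co-exposed library was far above every vehicle library. On the lower side, Bcan, a proteoglycan gene, had 21.6, 19.8, 18.3 and 14.2 CPM against 82.6 to 123 CPM (median 105) (−2.54 ± 0.16, adjusted p = 9.47e-14), the ion channel gene Asic4 fell from 11.3 ± 2.4 CPM to 1.57 ± 0.36 CPM, and Fer1l4 fell from 11.4 ± 1.7 CPM to 1.88 ± 0.58 CPM. Spocd1, a gene of piRNA-directed silencing in male germ cells, had 5.78, 9.26, 8.78 and 4.85 CPM against 11.1 to 96.9 CPM (median 59.0) (−2.95 ± 0.69, adjusted p = 0.00128), and its vehicle libraries covered a wide span. Among abundant genes, the lysosomal protease gene Ctsl fell from 729 ± 51 CPM to 382 ± 44 CPM, and Igfbp5, whose product binds insulin-like growth factors, rose from 1318 ± 181 CPM to 1929.9 ± 338 CPM.

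For 294 genes the change with both compounds passed that with either one. These genes were called against vehicle, against ATRA alone and against the change with MEHP alone, always in the same direction, and 125 rose (0.647% of genes tested) and 169 fell (0.875%). The criteria share the co-exposed libraries, and the changes with ATRA and with both share the lower-range vehicle libraries, while the change with MEHP is against the upper-range vehicle libraries. Each gene's 3 changes are therefore set side by side. Without MEHP + ATRA replicate 1, 169 genes met all 3 criteria, 60 up and 109 down, and 340 rather than 579 differed from ATRA alone.

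Among the falls, Hsd17b1, whose enzyme activates estrone (ENSMUSG00000019301, chromosome 11, 101078411 to 101080527), had 4.62, 4.0, 3.65 and 5.09 CPM against 51.5 to 85.8 CPM (median 69.5). It changed by −1.09 ± 0.14 with MEHP, −2.04 ± 0.15 with ATRA and −3.98 ± 0.20 with both, and the last was lower than ATRA by −1.94 ± 0.21 (adjusted p = 8.43e-07). Slc13a2, a dicarboxylate transporter gene, had 0.475, 0.279, 0.270 and 0.570 CPM against 8.63 to 13.3 CPM (median 10.6), with changes of −1.66 ± 0.16, −2.38 ± 0.17 and −4.69 ± 0.24. It overlaps an antisense gene, whose reads could be counted with it. Spata21, a gene named for spermatogenesis, had 4.32, 4.56, 4.50 and 3.87 CPM against 42.3 to 53.8 CPM (median 49.0), and changed by −0.64 ± 0.11, −1.65 ± 0.12 and −3.51 ± 0.15 with MEHP, ATRA and both. For all 3 genes the co-exposed libraries were far below the vehicle libraries and close to each other. Sgpp2, a sphingosine phosphatase gene, changed by −1.37 ± 0.14, −1.81 ± 0.14 and −3.14 ± 0.17, and the serpin gene Serpina3a by −0.84 ± 0.14, −1.68 ± 0.15 and −2.89 ± 0.18. Gm7534, a predicted gene, was not called with either compound alone: it had −0.50 ± 0.36 (adjusted p = 0.601), −0.85 ± 0.35 (adjusted p = 0.1) and −3.43 ± 0.48 (adjusted p = 1.4e-06). Drc1, a gene of the motile cilium, was not called with MEHP (−0.46 ± 0.37) or ATRA (−0.80 ± 0.37) and had −2.61 ± 0.46 with both.

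Among the rises, Tmem255a, a membrane protein gene on chromosome X, had 160.0, 164, 152 and 156 CPM against 12.5 to 17.8 CPM (median 14.3). It changed by 0.44 ± 0.13 with MEHP, 2.85 ± 0.12 with ATRA and 3.43 ± 0.12 with both. Dhrs3 changed by 0.57 ± 0.07, 2.59 ± 0.06 and 3.06 ± 0.07, and both compounds exceeded ATRA by 0.46 ± 0.07 (adjusted p = 0.000266). Lrat was not called with MEHP (0.31 ± 0.20, adjusted p = 0.515), yet its change with both (2.65 ± 0.17) passed that with ATRA (2.00 ± 0.16) by 0.65 ± 0.18 (adjusted p = 0.0469). Tspan32, a tetraspanin gene, had 1.68 ± 0.18, 1.93 ± 0.16 and 3.06 ± 0.17, and the unconventional myosin gene Myo7b had 1.39 ± 0.28, 1.86 ± 0.26 and 3.06 ± 0.26. Diras2, which encodes a small GTPase, had 1.59 ± 0.16, 2.04 ± 0.14 and 2.70 ± 0.15, and Plekhb1 0.82 ± 0.15, 2.27 ± 0.13 and 2.85 ± 0.14. Among the lists, ATF4 held 7 genes of this kind, adhesion 4 (all lower), FGF and ERK 3, the synthetases 3, Sertoli cells 3 (1 higher, 2 lower) and retinoid binding and storage 3 (2 higher, 1 lower). Of the 29 meiosis genes edgeR called 0 against ATRA alone (4 at an unadjusted p under 0.05, and 0 in DESeq2 and limma-voom), and of the 20 anterior Hox genes and cofactors 0 (1 at an unadjusted p under 0.05, 1 in DESeq2 and 0 in limma-voom). Only 3.0% of all genes tested were called against ATRA alone, and counts of 0 in lists of this size lie near that share.

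**Figure D5:**
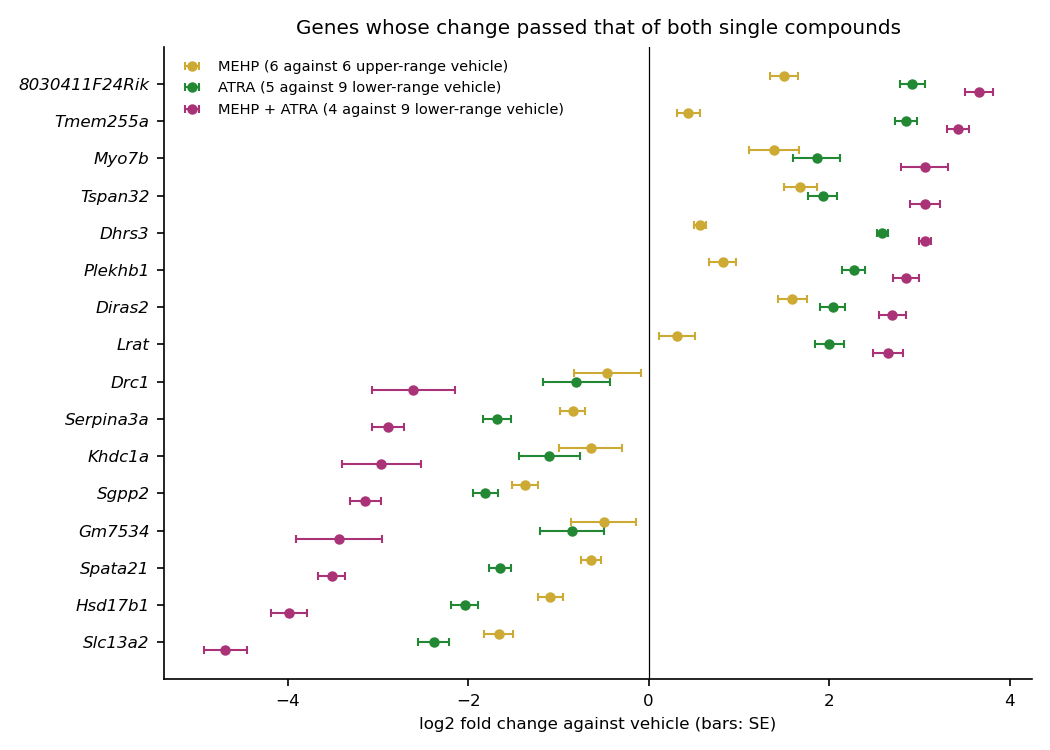
Log2 fold changes against vehicle (bars are SE) with MEHP, with ATRA and with both, for the 8 largest rises and 8 largest falls among genes past both single compounds with at least 10 CPM in some group. The purple point of each gene lies farther from 0 than its green and yellow points, from −4.69 for Slc13a2 to 3.66 for 8030411F24Rik.

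Among genes also changed from vehicle, large differences from ATRA alone were found in both directions. On the higher side were Atp8b1, a phospholipid flippase gene (1.28 ± 0.22), Slc7a3 (1.26 ± 0.27), Chac1 (1.26 ± 0.22), Agt, the angiotensinogen gene (1.22 ± 0.28), and Myo7b (1.20 ± 0.29). Agt had 151, 61.1, 93.5 and 64.2 CPM with both compounds and 25.7 to 50.6 CPM with ATRA alone, with replicate 1 the highest. On the lower side were Gm7534 (−2.58 ± 0.50), Hsd17b1, Khdc1a (−1.86 ± 0.46), Spata21 (−1.86 ± 0.16), Drc1 (−1.81 ± 0.49) and Rrad, a small GTPase gene (−1.66 ± 0.38). Gm7534, Khdc1a, Drc1 and Rrad varied widely among vehicle libraries, Rrad from 29.6 to 128 CPM, and every co-exposed library was below that span.

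Further members of the lists differed from one single compound, and their changes with MEHP, with ATRA and with both are given in that order. Among PPAR targets, Slc25a34 had 1.85 ± 0.16, −0.02 ± 0.16 and 1.42 ± 0.16, and Angptl4 had 1.39 ± 0.07, −0.34 ± 0.07 and 0.77 ± 0.07. Both genes were higher with both compounds than with ATRA alone, by 1.44 ± 0.18 and 1.10 ± 0.08. Cpt1a likewise had 0.61 ± 0.07, −0.05 ± 0.07 and 0.60 ± 0.07. In the male germ cell list, Nanos2 had −0.80 ± 0.43, −1.86 ± 0.44 and −3.92 ± 0.60, and its fall was larger than with MEHP (difference −3.12 ± 0.73, adjusted p = 0.00538). The difference of Nanos2 from ATRA alone did not pass (−2.06 ± 0.65, adjusted p = 0.0862), whereas that of Tdrd5 did (−0.74 ± 0.20, adjusted p = 0.0323). In Sertoli cell genes, Fgf9 had 0.59 ± 0.16, 0.55 ± 0.15 and 1.40 ± 0.15, Hsd17b3 had −0.45 ± 0.08, −0.66 ± 0.08 and −1.58 ± 0.09, and Rhox8 had −1.27 ± 0.15, −0.50 ± 0.14 and −1.5 ± 0.17. Each of the 3 differed from ATRA alone, by 0.85 ± 0.18, −0.93 ± 0.09 and −1.0 ± 0.18. Among imprinted genes, Peg3 and Zim1 were higher than with ATRA alone, by 0.44 ± 0.11 and 0.55 ± 0.13, and the Bmp4 gene was lower (−0.57 ± 0.10). Bik, the death-promoting gene, had 1.72 ± 0.15, 0.95 ± 0.14 and 1.98 ± 0.15.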

How the data were processed

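The 30 libraries hold whole-number counts of reads per gene from oligo-dT-selected RNA, as deposited by the authors. Per the submitters' processing notes, the tools were bcl2fastq 2.20, Trimmomatic 0.36, STAR 2.5.2b, featureCounts of Subread 1.5.2 and DESeq2. No source used here gives the genome build, the annotation or the strand setting. Gene coordinates are those of the deposited table, and 91.37% of its genes have the same coordinates in GENCODE M21 (GRCm38).

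Genes were filtered with filterByExpr (minimum count 10), which left 19323 of 49315, and scaled by TMM (factors 0.975 to 1.023). All 30 libraries were fitted with 5 group means in edgeR 4.0.16 (R 4.3.3; quasi-likelihood test, 25 residual degrees of freedom), with Benjamini-Hochberg adjustment over all genes tested at 0.05. A gene is called, rose or fell where it passed that test. CPM values are counts over TMM-scaled library totals, scaled as usual, SD is over libraries, and the SE of a log2 fold change is its size over the square root of F. The common biological coefficient of variation was 12.7%. MEHP alone was set against upper-range vehicle libraries, ATRA and both compounds against lower-range ones.

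The comparison, the 45 gene lists (910 of 917 genes matched by symbol, 883 tested) and the rule for named genes were chosen with earlier results of these data known. Over all distinct list members, 286 rose and 162 fell. The rule takes the 12 largest rises and falls at 10 CPM or more without overlap, the 8 largest gains and losses in CPM, in each list the 4 members of lowest p, the 8 largest changes each way past both single compounds, the 6 largest differences each way from ATRA alone, and a panel of 48 genes. Not all 237 genes it gave are printed, and some results are not reported here. Of 227 genes named, 58 lie outside the rule. They are members of the lists and were chosen after their values were seen. Promoter windows and motifs came from RefSeq (GRCm38.p6). Alternatives used DESeq2 1.42.0, limma-voom 3.58.1, other scalings, filters, library sets, a replicate block, and each library left out in turn. Leaving out vehicle replicates 7 and 8 together was chosen after seeing the data.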

Additional observations from a re-analysis of the deposited data

Results flagged for a closer look

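In 35 cases, among 454 groups of 4 or 9 libraries over 227 genes, 1 library lay far from the other libraries of its group, by a gap that chance gives in about 1 of 20 groups. Values are CPM of that library, with the range of the others after it.

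In the co-exposed group, replicate 1 was the highest for Amh (640.8, others 399.6 to 435.5), Gata4 (512.2, others 398.0 to 403.1), Tpm1 (368.7, others 328.7 to 330.3), Ier2 (45.9, others 37.7 to 38.1), Spry4 (41.4, others 28.3 to 29.6), Lefty1 (18.4, others 9.82 to 11) and Rhox8 (9.97, others 7.43 to 7.54), and the lowest for Hoxd11 (3.62, others 5.66 to 6.08). Replicate 2 was the highest for Aldh1a2 (76.7, others 58.9 to 61.0) and Axin2 (41.7, others 27.3 to 28.6), and the lowest for Psat1 (131.4, others 163.9 to 170.0) and Slc25a34 (3.68, others 4.24 to 4.32). Replicate 3 was the lowest for Cyp26a1 (16.8, others 20.8 to 21.1) and the highest for Pparg (2.79, others 1.51 to 1.63), and replicate 4 was the highest for Hsd17b3 (40.8, others 36.0 to 36.7).

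In the vehicle group, replicate 1 was the lowest for Inhbb (204.1, others 257.4 to 296.0), Hk1 (86.8, others 99.8 to 109.9), Kit (53.6, others 63.3 to 71.3), Ier2 (46.1, others 58.4 to 63.1) and Bmp2 (7.30, others 9.91 to 11.9), and the highest for Crabp2 (10.5, others 6.43 to 8.03). Replicate 7 was the highest for Sparc (1305.1, others 1155.8 to 1228.3), Crabp1 (11.3, others 3.81 to 6.72), Hoxb4 (4.32, others 1.65 to 2.99) and Perp (3.11, others 1.47 to 2.22), and the lowest for Nnat (88, others 112.0 to 131.6) and Nanos3 (4.11, others 7.93 to 11.2). Replicate 8 was the highest for Etv4 (13.3, others 6.49 to 9.92), Sohlh2 (10.9, others 3.91 to 7.16), Vdr (10.8, others 6.49 to 8.05) and Lhx1 (6.38, others 0.791 to 2.33), and the lowest for Ddit3 (20.1, others 22.8 to 25.2). Replicate 3 was the highest for Tagln2 (133.9, others 115.1 to 123.2) and Isg15 (6.62, others 1.79 to 3.71), and replicate 5 for Rhox9 (0.757, others 0.217 to 0.444).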

How the results depend on the processing

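Every gene called against vehicle both in the main analysis and in an alternative kept its direction. The balance of rises and falls could turn. Past both single compounds it went from 125 up and 169 down to 146 and 133 with limma-voom. Against ATRA it went from 313 higher and 266 lower to 281 and 292 with upper-quartile scaling. Against vehicle, 5042 to 6586 genes were called under the other scalings, filters, tools, library sets and blocks, and between 47.3% and 53.1% of them were higher (49.3% in the main analysis). Leaving out 1 library gave 4613 to 5673 genes called, 1220 to 1287 changed at least 2-fold, 3470 to 4332 without overlap, 340 to 627 against ATRA, 1307 to 1724 against the change with MEHP, and 169 to 317 past both single compounds. The lowest values against ATRA and past both were those without MEHP + ATRA replicate 1. With only the compared libraries fitted, 967 genes differed from ATRA alone (542 higher, 425 lower). With all 15 vehicle libraries as 1 group, 3181 genes differed from the change with MEHP (1504 higher, 1677 lower). The cause of these shifts was not tested. Without vehicle replicates 7 and 8, 5587 genes were called against vehicle and 4506 did not overlap. The count without overlap was 3408 in the main analysis and can only stay or rise when libraries are left out. The values of 3470 to 4332 and of 4506 therefore do not test its stability.

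With the first title number as a replicate block, 889 genes differed from ATRA alone in the lower-range libraries (486 higher, 403 lower), and 6021 (all libraries) or 6586 (lower range) differed from vehicle. The main fit used no block, and the meaning of the numbers is not stated. Of 8 same-numbered pairs, 5 had deviations correlated above 0.1 (range −0.142 to 0.228, median 0.1165), against 7 of 28 differently numbered pairs (median 0.0115). Same-numbered pairs leaned higher, and these values do not settle whether such libraries share a source. Under the blocks the calls of Fos (adjusted p = 0.0542 and 0.0605) and Pdk4 (0.0753 and 0.0771) were lost, and in the lower-range block that of Crabp2 (0.051). Calls were gained for Dnmt3l in both blocks (0.0112 and 0.00957) and in the lower-range block for Cyp17a1 (0.000131) and Dazl (0.00364). The ribosomal list went from 0 called to 4 and 1.

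Precision is limited by 4 co-exposed libraries, by unknown sources of the libraries, and for genes under about 1 CPM by counting error.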
